A study of Mus musculus with 74 samples.

Results

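The clustered protocadherin genes are the protein-coding genes on mouse chromosome 18 whose symbols start with Pcdha, Pcdhb or Pcdhg in the GENCODE vM21 annotation of mm10. The rule gave 57 of 21938 protein-coding genes, 14 in the α subcluster, 22 in the β subcluster and 21 in the γ subcluster, within chr18:36930184-37841873 on the forward strand. They were followed in lists of H3K9me3 peaks made by ULI-NChIP-seq, a native ChIP-seq method for very few cells that cuts uncrosslinked chromatin with micrococcal nuclease before the precipitation. H3K9me3, trimethylation of lysine 9 of histone H3, is a mark of heterochromatin. Peaks came from B6D2F1 cumulus cells (CC), somatic cells that surround the oocyte, and from embryos cloned from them. For this somatic cell nuclear transfer (SCNT) a CC was injected into an enucleated B6D2F1 oocyte, which was activated with strontium chloride while cytochalasin B was present. SCNT embryos were taken at 6 and 14 hours post activation (hpa), as embryos of 2, 4 and 8 cells, as morulae, and as blastocysts divided into trophectoderm (TE), which forms the placenta, and inner cell mass (ICM), which forms the embryo proper. Fertilized zygotes at pronuclear stage 5 (PN5) came from C57BL/6 parents, so strain and type of embryo cannot be told apart, and the study took its fertilized data from earlier work, so a comparison with PN5 may also be one between studies.

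The labels give 41 H3K9me3 libraries and 33 input libraries, which the authors pooled into 1 peak list per stage, 10 lists in all. Each stage therefore had a single value, with no replicate error, and no test could be run. The intervals given below are Wilson 95% intervals over exons or promoters, which cover counting error only, and neighbouring exons are not independent. Where a list has no peak the signal was under the caller's threshold, which does not show that the mark was absent. The lists held between 120195 and 200342 peaks covering between 134 and 255 Mb, the longest in CC and the shortest in PN5. Peak lists of a repressive mark hold no expression, so the labelled cell types could not be checked against marker genes.

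Protocadherins are cadherin-like adhesion proteins of the cell surface, and the clustered ones give single neurons different surface identities. Each α or γ gene has its own large variable exon with its own promoter, and that exon is spliced to constant exons shared by the whole subcluster, whereas each β gene is in essence a single large exon. In neurons most variable exons are chosen at random, a choice that involves CTCF and cohesin and DNA methylation at the promoters, while the C-type genes (Pcdhac1, Pcdhac2, Pcdhgc3, Pcdhgc4 and Pcdhgc5) are controlled differently and expressed more broadly. The variable exon was taken here as the first exon of the representative transcript of each gene, of which between 2316 and 2562 bp were coding. The β exons hold longer noncoding parts, and the median exon length was 3714 bp in β, 2490 bp in α and 2607 bp in γ. An exon is called marked where merged peaks covered at least 50% of its bases, which asks for more covered bases in a long β exon. In the annotation 2 genes carry the symbol Pcdha11, and the one with the lower coordinate is called Pcdha10 here after its RefSeq record. Pcdhgb8, a polymorphic pseudogene in the annotation, is not a member.

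In CC, peaks covered nearly every variable exon of the α and γ subclusters and left the C-type exons without any. Of the 57 first exons 42 were marked, 73.7% with an interval from 61.0 to 83.4%, against 12.2% of all 1432 first exons of at least 1000 bp. All 12 α exons outside the C-type were marked, with a median coverage of 100% and a lowest value of 57.2% in Pcdha6, and so were all 18 γ exons outside the C-type, of which 16 were covered in full. The lowest of those γ exons was Pcdhgb6 at 77.5%. In the β subcluster 12 of 22 exons were marked, and the values ran from 0 in Pcdhb1 over 10.4% in Pcdhb16 to 100% in Pcdhb9 and Pcdhb22. Members thus made up 42 of the 175 long first exons marked in CC.

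By this rule the number of marked exons was similar in CC and in the SCNT 1-cell lists and lower from the 2-cell stage on. At 6 hpa 40 of 57 were marked, against 27.3% of all long first exons, and at 14 hpa 41 of 57, against 13.3%. In 2-cell embryos 26 were marked, where the share of all long first exons was 9.15%, and in 4-cell embryos 19, where it was 8.38%. The count was 14 in 8-cell embryos, beside 6.84% of all long first exons, and 11 in morulae, beside 4.82%. In blastocysts 8 were marked in ICM, beside 4.33%, and 12 in TE, beside 3.21%. In every CC and SCNT list the members' share lay above that of all long first exons, and the lowest such share, 14.0% in ICM, had an interval from 7.29 to 25.3%. Of the 42 exons marked in CC, 33 were marked in both SCNT 1-cell lists. The course depended on how an exon was called marked. Where 75% of its bases had to be covered, 36 exons were marked in CC, 23 at 6 hpa, 24 by 14 hpa and 16 in 2-cell embryos, so that the count was lower already at 6 hpa. Where an exon that held at least 50% of a peak was counted too, 51 were marked in CC, 49 at 14 hpa and 45 in 2-cell embryos.

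In PN5 zygotes the share of members was close to the background instead. There 2 of 57 first exons were marked, 3.51% with an interval from 0.968 to 11.9%, against 5.73% of all long first exons. The marked ones were Pcdhb12, with 90.8% of its bases covered, and Pcdhga6, with 82.2%. No peak touched 48 of the 57 exons in PN5, compared with 6 in CC, 4 at 6 hpa and 7 at 14 hpa.

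**Figure D1:**
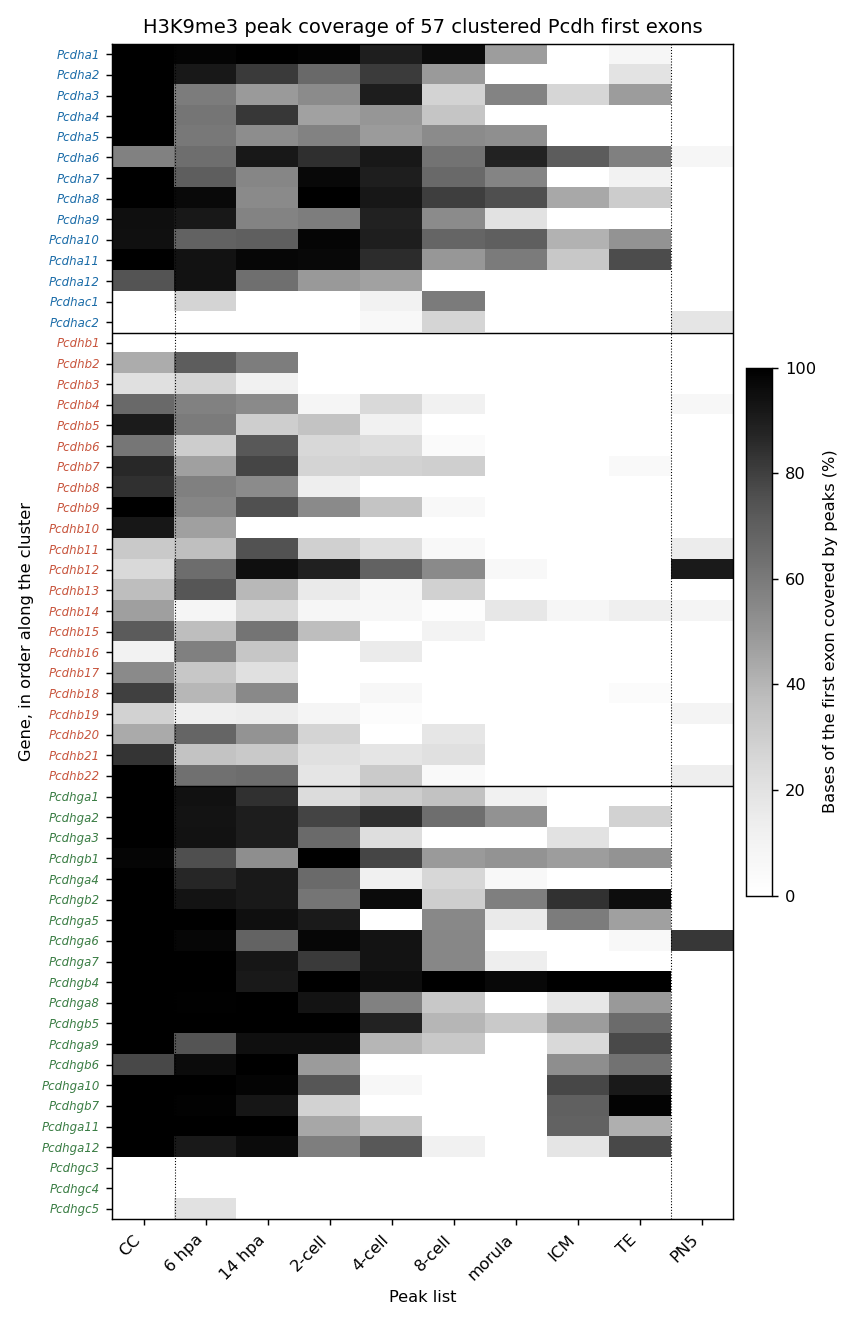
Percent of the bases of each first exon covered by merged H3K9me3 peaks, for the 57 clustered protocadherin genes in their order along the cluster (rows, names coloured by subcluster) and the 10 peak lists (columns). The C-type genes are pale apart from Pcdhac1 in 8-cell embryos (59.7%), Pcdhb1 is blank, the β exons are pale from the morula on, several γ exons are darker in ICM and TE than in morulae, and in PN5 only Pcdhb12 and Pcdhga6 exceed 50%.

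The α subcluster had the largest share of marked exons at each stage from the 2-cell embryo to the morula. It had 12 of 14 exons marked in CC and at 6 hpa, 11 at 14 hpa, 10 in 2-cell embryos, 9 in 4-cell embryos, 8 in 8-cell embryos and 7 in morulae. In ICM only 1 was marked and in TE 3. The α exon with the highest mean over the 10 lists was that of Pcdha11, covered over 100% in CC, 93.6% at 6 hpa, 97.4% at 14 hpa, 96.9% in 2-cell embryos, 85.2% in 4-cell embryos, 49.3% in 8-cell embryos, 59.4% in morulae, 32.3% in ICM and 76.4% in TE. Its PN5 value was 0, and its ICM value was the lowest among the CC and SCNT lists. The α exons outside the C-type had the smallest share of 100-base words that occur once in the genome, a median of 93.6% against 99.9% in β. The lowest members were Pcdha11 with 87.0% and Pcdha6 with 88.9%. Over the 57 exons this share had a Spearman correlation with coverage of −0.29 in CC, −0.55 in 2-cell embryos and −0.56 in morulae. Its part in the α values was not tested.

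Pcdha6 and Pcdha8, the next in mean coverage, behaved differently from each other. Pcdha6 was the α exon with the lowest coverage outside the C-type in CC, 57.2%, but it stood at 91.6% at 14 hpa, 88.3% in morulae, 70.8% in ICM and 57.5% in TE, and was marked in all 9 lists other than PN5, where 7.54% was covered. Pcdha8 was covered over 100% in CC and in 2-cell embryos, 75.5% in morulae, 44% in ICM, 30.8% in TE and 0 in PN5. Pcdha12, the last α exon before the C-type pair, had the lowest mean outside that pair, with 74.1% of its bases covered in CC, 93.5% at 6 hpa, 63.8% by 14 hpa and 46.3% in 4-cell embryos, and no peak touched it from the 8-cell stage on.

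The β exons had the smallest share of marked exons in every SCNT list. From 12 of 22 in CC, 10 at 6 hpa and 12 at 14 hpa, the count was 2 in 2-cell embryos, 9.09% with an interval from 2.53 to 27.8%, next to a background of 9.15%. It was 1 in 4-cell and 8-cell embryos and in PN5, and 0 in morulae, ICM and TE, where the interval reached 14.9%. The median coverage of a β exon was 57.6% in CC, 46.7% at 6 hpa, 52.4% at 14 hpa, 14.5% in 2-cell embryos and 0 from the morula on. In 2-cell embryos the α exons still had a median of 62.4% and the γ exons 66.0%. The β counts depended on the long noncoding parts of these exons. By the coding part alone, a setting chosen after seeing the data, 18 β exons were marked in CC, beside 12 of 14 in α and 18 of 21 in γ. By that setting 16 β exons were marked at 6 hpa, 15 at 14 hpa and 3 in 2-cell embryos, and the β share was still the smallest in every SCNT list.

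Pcdhb12 was the β gene with the highest mean coverage and departed from its neighbours. Its exon was covered over 24.8% in CC, 64.8% at 6 hpa, 94.8% at 14 hpa, 89.0% in 2-cell embryos, 68.5% in 4-cell embryos, 54.0% in 8-cell embryos and 5.80% in morulae, and no peak touched it in ICM or TE. It was the only β exon marked in 4-cell and 8-cell embryos and in PN5, where the value was 90.8%. Its coverage in CC was thus lower than in the 1-cell lists of both types of embryo.

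Pcdhb9 and Pcdhb7 came next in mean coverage and had a more usual course. Pcdhb9 was covered over 100% in CC, 55.5% at 6 hpa, 75.1% at 14 hpa, 54.2% in 2-cell embryos and 34.0% in 4-cell embryos. For Pcdhb7 the values were 86.6% in CC, 46.7% at 6 hpa, 78.2% by 14 hpa and 27.0% in 2-cell embryos. Neither exon was touched in morulae, in ICM or in PN5, and in TE only Pcdhb7 was, over 4.40%. At the low end, Pcdhb1 was not touched by a peak in any list, Pcdhb3 reached at most 26.7%, at 6 hpa, and Pcdhb19 at most 28.1%, in CC. Of the coding part alone, 43.0% was covered in Pcdhb3 at 6 hpa and 53.1% in Pcdhb19 in CC.

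The γ subcluster showed a low in morulae and higher values in blastocysts. Its count of marked exons among 21 was 18 in CC, at 6 hpa and at 14 hpa, then 14 in 2-cell embryos, 9 in 4-cell embryos, 5 in 8-cell embryos, 4 in morulae, 7 in ICM and 9 in TE. From morula to TE, 12 γ exons had higher coverage, 5 lower and 4 equal. For the α subcluster the same comparison gave 2 higher, 8 lower and 4 equal. The intervals of the γ share overlapped, from 7.67 to 40.0% in morulae and from 24.5 to 63.5% in TE.

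A run of 7 γ exons stood unmarked in both 8-cell embryos and morulae and marked in ICM or TE, namely Pcdhgb5, Pcdhga9, Pcdhgb6, Pcdhga10, Pcdhgb7, Pcdhga11 and Pcdhga12, and no α or β exon did so. They are the last 7 member exons before the C-type γ genes. Pcdhga10 was covered over 100% in CC and at 6 hpa, 98.3% at 14 hpa, 73.3% in 2-cell embryos and 7.0% in 4-cell embryos, and no peak touched it in 8-cell embryos and morulae, whereas 77.9% was covered in ICM and 91.1% in TE. Pcdhgb7 had 100% in CC, 28% in 2-cell embryos, 0 from the 4-cell stage to the morula, 69.3% in ICM and 98.6% in TE. All 7 had no peak on them in PN5. This grouping was chosen after the values were seen.

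Pcdhgb4 had the highest mean coverage of all members, 88.4%. It was covered over 100% in CC, at 6 hpa, in 2-cell and 8-cell embryos, in ICM and in TE, over 91.3% at 14 hpa, 95.2% in 4-cell embryos and 97.1% in morulae, and over 0% in PN5. Only Pcdhgb4 and Pcdha6 were marked in all 9 CC and SCNT lists. Pcdhgb2 came next in the γ subcluster, with 100% in CC, 95.8% in 4-cell embryos, 29.9% in 8-cell embryos, 58.0% in morulae, 83.6% in ICM, 95.0% in TE and 0 in PN5. Pcdhgb5 had 100% in CC, at 6 and 14 hpa and in 2-cell embryos, 31.7% in morulae, 47.7% in ICM, 65.5% in TE and 0 in PN5.

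All 3 leading γ genes belong to the B-type, the smaller of the groups into which their names divide the variable γ exons. All 6 B-type exons were marked in TE, with a lowest value of 50.8%, as were 4 of them in ICM, whereas 3 of 12 A-type exons were marked in ICM and 3 in TE. In CC the types did not differ in this count, with 6 of 6 and 12 of 12 marked. The median coverage in TE was 80.3% for the B-type and 35.0% for the A-type, with A-type values from 0 to 91.1%. B-type exons also had more CpG sites for their base composition, a median observed-over-expected ratio of 0.69 against 0.47, and fewer of their 100-base words occur once in the genome, a median of 96.9% against 100%, with a lowest value of 89.3% in the B-type. The part of either feature in the difference was not tested. The division into types was made after the values were seen.

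**Figure D2:**
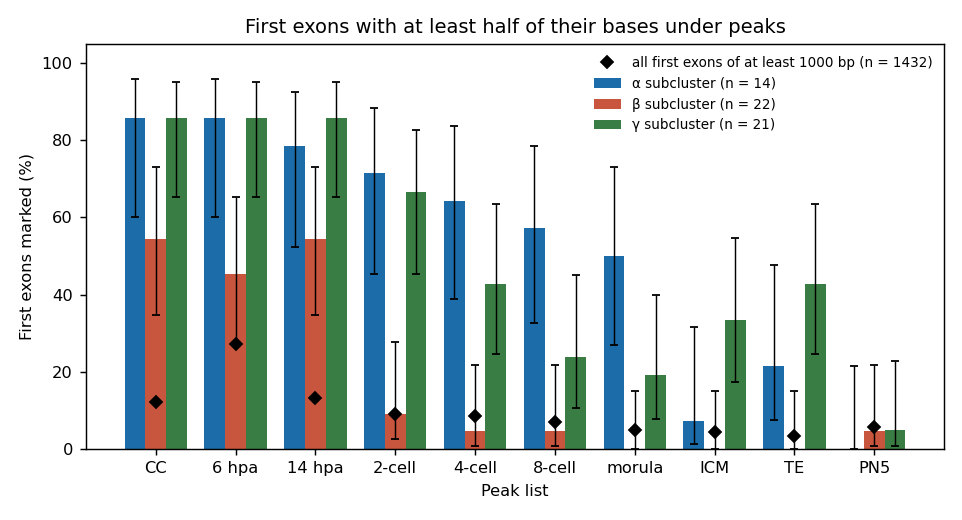
Percent of first exons with at least 50% of their bases under peaks in each list, for the α (14 exons), β (22) and γ (21) subclusters. Bars are the share, error bars the Wilson 95% interval over exons, and diamonds the share among all 1432 first exons of at least 1000 bp. The β bars lie near or below the diamonds from the 2-cell stage on, while the γ bar is higher in TE than in morulae.

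The C-type genes formed the exception inside both subclusters. No peak touched any of the 5 C-type exons in CC, at 14 hpa, in 2-cell embryos, in morulae, in ICM or in TE, with an interval for the marked share that reached 43.4% because the group is small. Pcdhgc3 and Pcdhgc4 were not touched in any list, and Pcdhgc5 was touched only at 6 hpa, over 20.4% of its bases. Pcdhac1 was covered over 27.1% at 6 hpa, 10.5% in 4-cell embryos and 59.7% in 8-cell embryos, its only marked stage. Pcdhac2 was covered over 5.55% in 4-cell embryos, 26.9% in 8-cell embryos and 18.1% in PN5.

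The C-type γ exons lay beyond the end of the peaks of that subcluster. In CC the nearest peak before Pcdhgc3 ended 12474 bp upstream of its exon and the next peak after it began 151679 bp downstream, past the γ constant exons. Pcdhac2 likewise had no CC peak within 22467 bp upstream or 76809 bp downstream. The nearest CC peaks to the Pcdhac1 exon were 13068 bp upstream and 10633 bp downstream. The constant exons of the α and γ subclusters were free of peaks in CC and in nearly all other lists, the exceptions being 6.98% of the γ constant bases at 6 hpa and 3.11% of the α constant bases in PN5. Every 100-base word of all 5 C-type exons occurs once in the genome.

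**Figure D3:**
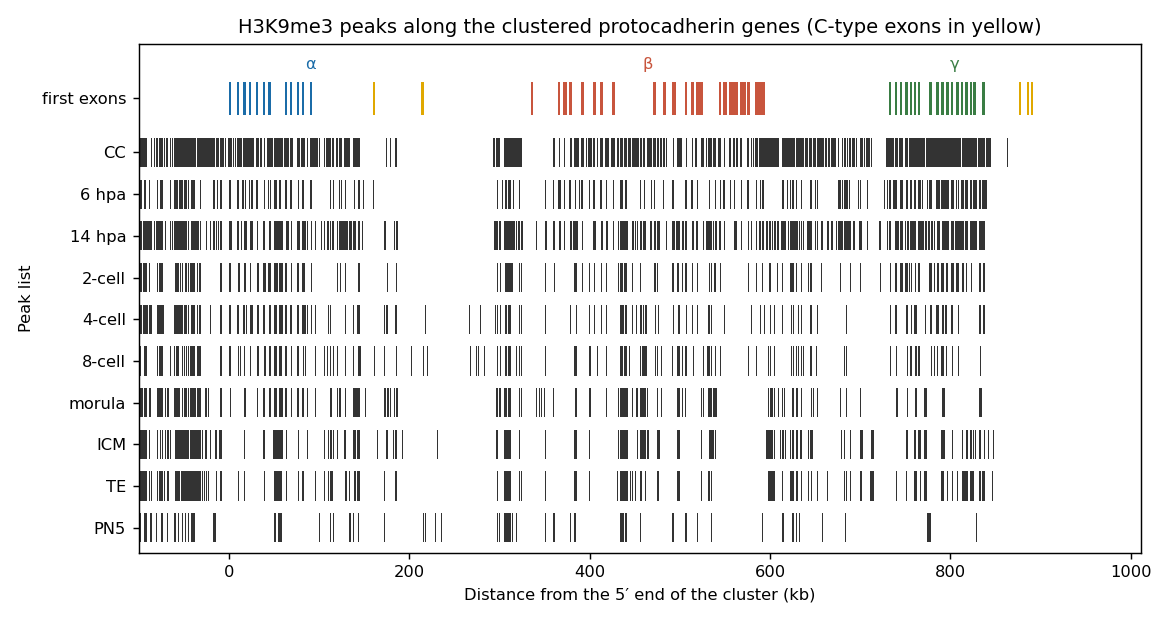
Merged peaks of each list (dark blocks, 1 row per list) along the cluster, with the first exons above them in blue (α), red (β), green (γ) and yellow (C-type). The horizontal axis is the distance in kb from the 5′ end of the cluster. CC peaks fill much of the variable α and γ parts and stop before the C-type γ exons, and the rows from the 2-cell stage on are sparser.

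Over whole subclusters, the cluster was denser in peaks than the genome in every list except PN5 in its γ part. In CC 42.4% of the α bases, 48.8% of the β bases and 58.3% of the γ bases were covered, against 9.63% of the genome and 5.75% of chromosome 18. At 6 hpa the values were 16.4, 23.5 and 35.5%, and at 14 hpa 30.0, 37.8 and 41.4%. In PN5 they were 7.31, 7.99 and 2.94%, against 5.05% of the genome. The stretch of 500 kb before the cluster was covered over 18.8% in CC and the stretch of 500 kb after it over 2.10%. In blastocysts the stretch before the cluster was covered more than the α and β subclusters and less than γ. It had 15.9% in ICM, against 14.4, 14.1 and 16.4%, and 14.6% in TE, against 13.8, 12.1 and 20.4%. In PN5 it had 7.84%, more than α and γ and less than β. The stretch after the cluster had 2.19% in ICM, 2.64% in TE and 4.49% in PN5.

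Peaks in CC were broad enough to join several exons. Of 48 CC peaks on first exons, 6 spanned at least 2 of them and together touched 19 exons. The longest measured 34864 bp, at chr18:37706999-37741862, and ran from Pcdhga6 to Pcdhga9 over 6 member exons. At 14 hpa 4 peaks spanned 2 exons each and in TE 1 did, while none did in the other 7 lists. Exons under a shared peak do not count as separate observations.

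At 6 hpa the peaks were shorter, with a median width of 808 bp in the cluster against 1700 bp in CC, and more of their length lay on first exons, 51.2% against 27.7%. The coding parts of the first exons of the whole cluster were covered over 78.2% in CC and 74.2% at 6 hpa, whereas the sequence between exons was covered over 45.1% in CC and 13.9% at 6 hpa. Coding coverage was therefore 1.74 times that of the sequence between exons in CC and 5.34 times at 6 hpa. The 14 hpa list had 68.1% and 32.5%, a ratio of 2.09, and the 2-cell list had 50.3% and 10.9%, a ratio of 4.60. The sequence between exons was thus covered more at 14 hpa than at 6 hpa, and the coding parts less. The 6 hpa list covered 157 Mb of the genome and the 14 hpa list 237 Mb. With lists trimmed to equal length, a setting chosen for this ratio after seeing the data, the ratio was 5.94 at 6 hpa and 2.82 at 14 hpa. The part of the difference in list length in the coverage values themselves was not tested.

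The subclusters separated in the later lists by where their remaining peaks lay. In the γ subcluster the coding parts stayed above the sequence between exons, with 63.7 and 4.95% in 2-cell embryos, 16.7 and 7.69% in morulae and 43.8 and 9.41% in TE. In the β subcluster the order turned. There the coding parts had 27.5% and the sequence between exons 12.7% in 2-cell embryos, 11.7 and 17.3% in 8-cell embryos, 0.335 and 26.2% in morulae, 0 and 21.4% in ICM and 0.293 and 18% in TE. Peaks in the β subcluster of blastocysts thus lay almost wholly outside the coding exons. The α subcluster had 38.4 and 15.0% in morulae, a wider gap than in γ. In ICM it stood between β and γ, with 15.9 and 14.5%.

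Between the exons of the α and β subclusters, peaks covered more of the soft-masked repeats than of the other sequence in every list. In the β subcluster of the morula 40.3% of the soft-masked bases were covered and 10.8% of the others, and in ICM 33.3 and 8.30%. In the α subcluster of CC the values were 50 and 25.9%. In the γ subcluster the order was the other way in CC, with 43.0% of the soft-masked and 48.3% of the other bases covered. It was also the other way, by less, at 6 hpa, with 13.8 and 14.2%, and in PN5, with 2.31 and 2.73%. Repeats made up 52.4% of the sequence between β exons and 29.3% of that between γ exons.

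**Figure D4:**
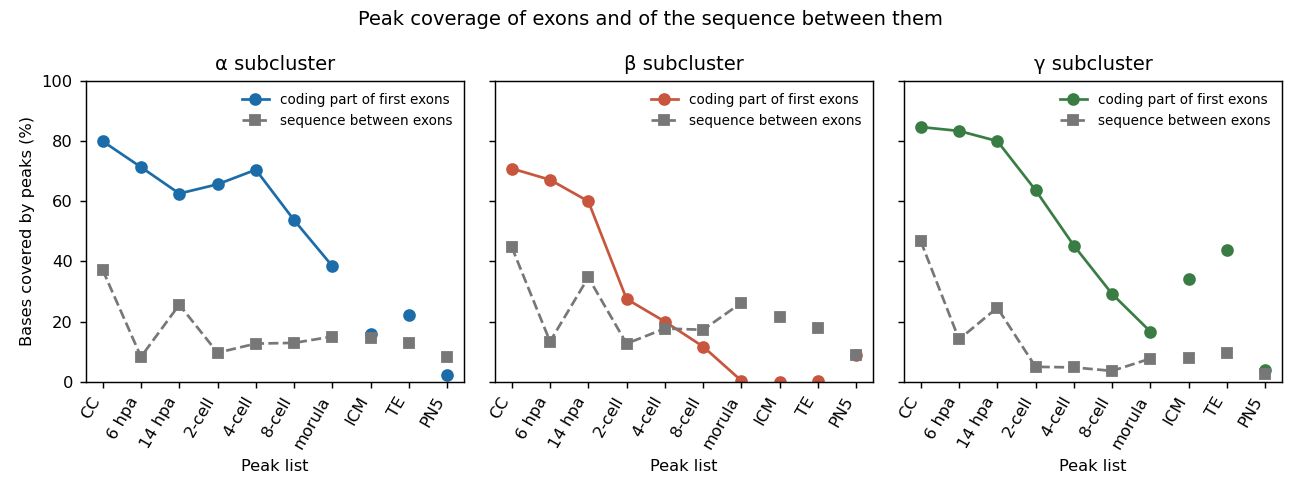
Percent of bases covered by peaks in the coding parts of the first exons (circles) and in the sequence between exons (grey squares), by list and subcluster. Lines join CC and the SCNT lists up to the morula, and ICM, TE and PN5 are separate points. In β the squares lie above the circles from the 8-cell stage to TE, and in γ the circles lie above the squares throughout.

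Averaged over the 57 genes, coverage in each list was higher in the last of 3 coding parts than in the others and than before the coding start. Peaks at 6 hpa covered 9.13% of the 1 kb before the coding start, 65.9% of the first 800 coding bases, 75.5% of the next 800 and 86.0% of the following 700. In 4-cell embryos the values were 1.23, 30.1, 39.4 and 60.2%. In the β genes in 2-cell embryos they were 0, 8.24, 24.9 and 54.7%, so the remaining marks lay near the 3′ end of the coding part. In CC the promoter side was covered too, with 46.4% of the 1 kb before the coding start over all members and 74.8% in the γ genes. The subclusters did not all follow this order. In the γ genes the middle part had the highest value at 6 hpa, 85.4%, and in TE, with 39.2, 51.0 and 44.2% over the 3 coding parts, and in PN5 the last part had the lowest, 2.44%. The last part was below the middle one in α genes in ICM, 21.5 against 22.0%, and the β genes had no coverage in the last part in morulae and ICM. In bins of 100 bp the β profile reached 95.5% in CC and at 6 hpa, a level it kept over several bins from about 1550 bp after the coding start on.

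**Figure D5:**
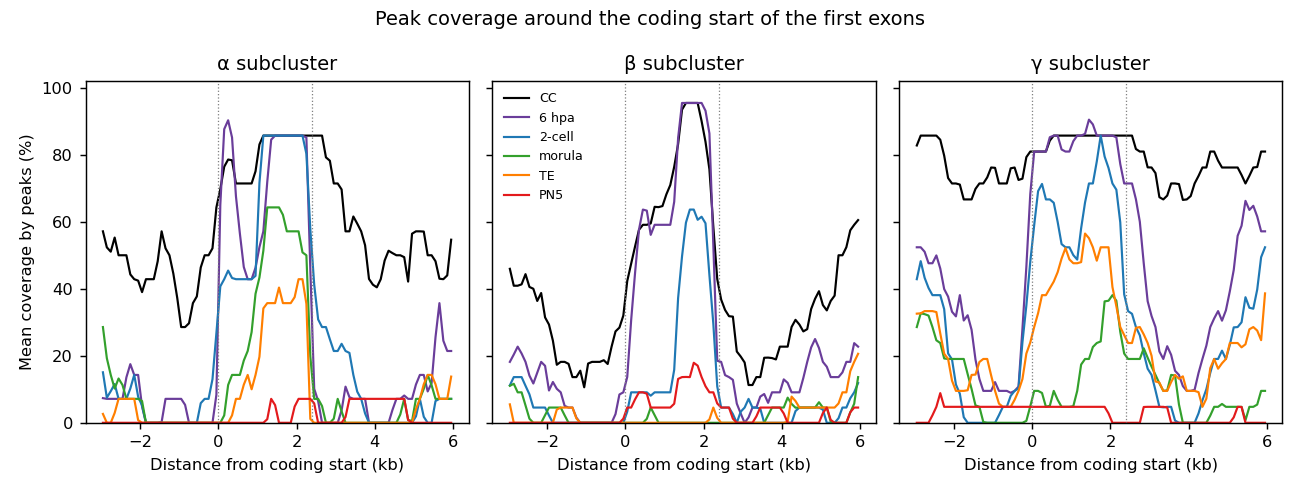
Mean percent of bases covered by peaks in bins of 100 bp around the coding start of the first exons, for the α, β and γ genes in 6 of the 10 lists. Dotted lines mark the coding start and 2.4 kb after it, near the end of the coding part. The 6 hpa line rises at the coding start and drops near the second dotted line, the CC line extends to both sides, and the PN5 line is the lowest within the coding part of the α and γ genes.

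Promoters were taken as 1 kb either side of the outermost annotated 5′ end of the gene. They were called marked by the study's own rule, with peaks over at least 50% of the promoter or at least 50% of a peak inside it, so their counts are not on the same scale as those of the exons. In CC 36 of 57 were marked, against 10.4% of 21938 promoters, and at 6 hpa 23, against 31.4%. The 6 hpa share of members, 40.4% with an interval from 28.6 to 53.3%, was thus near the background. At 14 hpa and in 2-cell embryos 15 were marked, where 10.8% and 8.52% of all promoters were. The counts were 5 in 4-cell embryos against 6.98%, 12 in 8-cell embryos against 7.53%, 3 in morulae against 5.62%, 6 in ICM against 4.5%, 7 in TE against 4.57% and 2 in PN5 against 9.14%. The shares of members in 4-cell embryos and in morulae, 8.77 and 5.26%, were near the background. The counts other than that of CC depended strongly on the rule. With at least 50% of the promoter itself covered 12 were marked at 6 hpa, 0 in morulae, 2 in ICM and 4 in TE, and with the 1 kb upstream alone the counts were 2, 0, 1 and 2.

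By subcluster, γ promoters had the highest count of marks in every list but PN5, where 1 β and 1 γ promoter were marked. The subclusters differ in size, and as a share α was ahead at 6 hpa, with 50% marked against 47.6% in γ. In CC 17 of 21 γ promoters, 8 of 14 α promoters and 11 of 22 β promoters were marked. The α promoters, whose exons kept many marks up to the morula, had 2 of 14 marked at 14 hpa, beside 10.8% of all promoters. They had 0 of 14 in 4-cell embryos and in morulae, beside 6.98 and 5.62%, with an interval that reached 21.5%. These counts were thus near the background. In 4-cell embryos peaks still reached into α promoters, with a median coverage of 32.7% and 5 of 14 untouched. The median there was 9.15% for γ promoters. In ICM 5 of the 6 marked promoters and in TE 6 of the 7 belonged to γ genes, and no β promoter was marked in either. The promoters of Pcdhac2, Pcdhb1, Pcdhb3, Pcdhgc3, Pcdhgc4 and Pcdhgc5 had no base under a peak in any list. The Pcdhac1 promoter was covered over 34.6% at 6 hpa and 10.4% in 8-cell embryos and 0 elsewhere. The median coverage of a γ promoter in CC was 100%, against 36.1% for a β promoter.

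By the CpG classes used for promoters, 19 members had a promoter of high, 32 of intermediate and 6 of low CpG content. The α subcluster had 10 high and 4 intermediate ones, the β subcluster 17 intermediate and 5 low ones and no high one, and the γ subcluster 9 high, 11 intermediate and 1 low. Among all promoters at 6 hpa, 42.4% of the high class were marked and 17.6% of the low class, so the classes differ in background. In CC the order was reversed, 6.21% and 16.4%. The CpG observed-over-expected ratio of the first exon had a median of 0.66 in α, 0.39 in β and 0.53 in γ, and 0.48 over all long first exons.

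Among the 5 largest differences in each direction between CC and 6 hpa, 8 were those of β exons and the others those of Pcdhac1 and Pcdha3. Coverage was higher at 6 hpa by 47.0 percentage points in Pcdhb16 (10.4 to 57.4%), 40.0 in Pcdhb12, 36.1 in Pcdhb13, 28 in Pcdhb2 and 27.1 in Pcdhac1. It was lower by the largest amounts in Pcdhb21 (82.9 to 34.8%), Pcdhb10 (91.8 to 46.8%), Pcdhb9, Pcdhb18 and Pcdha3 (100 to 59.3%). Of the 57 exons 35 were marked in both lists, 7 in CC alone and 5 at 6 hpa alone, and all 12 that differed were β exons. The Spearman correlation of coverage between CC and 6 hpa over the 57 exons was 0.76, a description over exons that share peaks and sequence.

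Between SCNT embryos at 14 hpa and fertilized zygotes at PN5, both late in the 1-cell stage, 49 exons had lower coverage in PN5, 2 higher and 6 equal. Both exons marked in PN5 were also marked at 14 hpa, and 39 others were marked at 14 hpa alone. Pcdha1, Pcdhga8, Pcdhgb5, Pcdhgb6 and Pcdhga11 were each covered over 100% at 14 hpa and 0 in PN5. The higher values in PN5 were those of Pcdhac2, 0 against 18.1%, and Pcdhga6, 68.1 against 82.2%. The PN5 list was also the shortest in the covered genome, 134 Mb against 237 Mb. With lists trimmed to equal length 33 exons were marked at 14 hpa and 2 in PN5. The part of the difference in list length in the values of single exons was not tested.

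Some sequence inside the cluster was covered in all 10 lists, PN5 included, but little of it was exonic. There were 22 such stretches with 18674 bp in all, and 189 bp of them lay in first exons. The longest within a subcluster, 2671 bp at chr18:37369012-37371682, lay 10407 bp after the Pcdhb8 exon and 29172 bp before the Pcdhb9 exon, with 98.2% of its bases soft-masked. Another, 2152 bp at chr18:36980337-36982488, lay between Pcdha7 and Pcdha8, and the longest of all, 2698 bp at chr18:37239807-37242504, lay in the gap between the α and β subclusters. In the stretch between Pcdhb8 and Pcdhb9 only 14.2% of 100-base words occur once in the genome, so reads there could not all be placed with certainty.

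By median, peaks on the exons were higher than the other peaks of the cluster in CC and at 6 and 14 hpa. They were lower in 2-cell embryos and in PN5. The median fold enrichment over input of peaks on first exons was 3.21 in CC, 3.52 at 6 hpa, 3.12 at 14 hpa, 3.17 in 2-cell embryos and 2.72 in PN5, and that of the other peaks of the cluster was 2.80, 2.87, 2.76, 3.40 and 2.99. Within the ICM list the highest fold in the cluster was 6.70, in the peak at chr18:37363988-37372354 between Pcdhb8 and Pcdhb9. Fold was set by the caller against the input of each stage and is compared here within a list.

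Protocadherins outside the cluster had the most marked promoters at 6 hpa, as did all promoters, and none in blastocysts. The 12 protocadherin genes outside the cluster, from Pcdh1 to Pcdh20, had 2 marked promoters in CC, 16.7% beside 10.4% of all promoters, 6 at 6 hpa, 50% beside 31.4%, and 3 in 2-cell embryos, 25% beside 8.52%. The count was 2 at 14 hpa, in 4-cell embryos and in PN5, beside 10.8, 6.98 and 9.14% of all promoters. It was 1 in 8-cell embryos and in morulae, beside 7.53 and 5.62%, and 0 in ICM and TE, beside 4.5 and 4.57%. In so small a group 0 is near that background. Most of the 12 promoters are of the high CpG class, of which 42.4% were marked at 6 hpa, so the share there was near that of its class. Of their 8 long first exons 3 were marked at 6 hpa, 2 at 14 hpa and in 2-cell embryos, and 1 in CC, that of the X-linked Pcdh19, covered over 72.9% in CC, 91.5% at 6 hpa and 100% both at 14 hpa and in 2-cell embryos. Pcdh12, which lies on chromosome 18 beyond the cluster, went the other way, with 0% in CC, 52.7% at 14 hpa, 75.3% in 4-cell embryos, 79.3% in 8-cell embryos, 0 in ICM and TE and 53.6% in PN5. The names Pcdhb12 and Pcdh12 are those of different genes.

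Genes that are known to act on the cluster or on H3K9 and DNA methylation were marked mainly at 6 hpa. Of 17 such promoters 2 were marked in CC, 12 at 6 hpa, 2 each at 14 hpa and in 2-cell embryos, 1 each in 4-cell and 8-cell embryos, 0 in morulae and in ICM, and 1 in TE and PN5. The share at 6 hpa, 70.6%, has to be read beside the 42.4% of all high-CpG promoters marked in that list. Ctcf, which encodes the insulator protein, was covered over 51.5% of its promoter at 6 hpa and 0 in the other 9 lists. Of the cohesin genes, Smc1a and Stag2, both X-linked, were the 2 marked in CC. The windows taken as promoters of Stag1, Dnmt1, Ehmt1, Trim28 and Setdb1, the last of which encodes an H3K9 methyltransferase, had no base under a peak in any list. Each window lies at the outermost annotated 5′ end of the gene. The first exon of the representative transcript can lie outside it, so the start of that transcript was not always assessed. The first exons of some of these genes did have covered bases. That of Stag1 was covered over 100% at 6 hpa, and that of Dnmt1 over 27.6% at 6 hpa and 100% in PN5. The first exon of Trim28 was covered over 26.7% at 6 hpa and 21.2% in 2-cell embryos.

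Neighbouring genes and other families had smaller shares of marked promoters in CC than the 63.2% of the members. Of 34 genes with their 5′ end inside the cluster or within 500 kb of it, 4 had a marked promoter in CC, and these were Slc25a2, which lies between the β and γ subclusters, and the predicted read-through genes Gm42416, Gm37013 and Gm37388, whose annotated 5′ ends lie in the first exons of α genes. Taf7, next to Slc25a2, which encodes a subunit of TFIID, was unmarked in CC and marked in 2-cell embryos, in ICM and in TE, with 100% of its promoter covered in ICM and TE. Among 1135 olfactory receptor genes of the Olfr family, another large clustered family, 13.3% of promoters were marked in CC and 7.93% at 6 hpa. Among 39 Hox genes 17.9% were marked in CC, 82.1% at 6 hpa and 7.69% in PN5.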

How the data were processed

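H3K9me3 and input libraries were trimmed by the authors with Cutadapt and aligned to mm10 with BWA mem, and the alignments of a stage were merged with SAMtools, freed of duplicates with Picard and drawn to the same number of reads. The authors called broad peaks over input with MACS2, so each deposited list pools its replicates, and the read depth of single libraries is unknown here. The MACS2 threshold is not given in the sources used here. Each deposited peak carries a fold enrichment, a linear ratio over input, and −log10 p and −log10 q values averaged over the peak by the authors' peak caller, of which the p column was not used.

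From these lists, peaks were merged and the covered bases counted in Python 3.11.15 with NumPy 2.4.6. The first exon was the 5′-most exon of the representative transcript (APPRIS principal, CCDS, then longest coding sequence) in GENCODE vM21, and background values used all first exons of at least 1000 bp or all promoters. Repeats and the uniqueness of 100-base words were read from GRCm38, the build of the files. Promoters were classed by CpG ratio and GC content in windows of 500 bp. Scripts were tested on simulated intervals with known coverage. Named genes were, in each subcluster, the 3 exons of highest and the 3 of lowest mean coverage, every C-type gene, the 5 largest differences each way between CC and 6 hpa and between 14 hpa and PN5, and genes within 500 kb. Members and gene lists were chosen with earlier results of these data known. No sequence of the members is reported here. No test was possible with 1 list per stage, and the alternatives tried are given at the end.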

Additional observations from a re-analysis of the deposited data

How the results depend on the processing

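No paired analysis was possible because each list pools its replicates, and leaving out a library was likewise not an option. Of 70 recomputed counts of marked exons 53 stayed within 1.5 times the reported count, of 40 counts of marked promoters 17 did, and of 60 subcluster coverages 45 stayed within a Wilson 95% interval in which each kb of the subcluster counts as 1 unit. The cause of the other differences was not tested beyond what each setting itself changes.

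Requiring 75% of an exon instead of 50% gave 23 marked exons at 6 hpa, 24 at 14 hpa, 16 in 2-cell embryos, 3 in 8-cell embryos, 3 in morulae, 3 in ICM and 7 in TE, and requiring 25% gave 28 in 8-cell embryos and 14 in ICM. Counting an exon also where it held at least 50% of a peak gave 45 at the 2-cell, 43 at the 4-cell and 37 in 8-cell embryos, 20 in morulae, 19 in ICM, 25 in TE and 9 in PN5. With peaks of a −log10 q of at least 2 the 8-cell count was 9. The members whose 100-base words are at least 90% unique, lists trimmed to equal length and, as a setting chosen after seeing the data, the coding part of the exon alone each kept every count within 1.5 times. These counts take the subclusters together. In the β subcluster the coding part alone gave 16 marked exons at 6 hpa, against 10 for whole exons.

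For promoters, the 1 kb upstream alone gave 2 at 6 hpa, 5 at 14 hpa, 1 in 2-cell embryos, 0 in 4-cell and 8-cell embryos and in morulae, 1 in ICM, 2 in TE and 1 in PN5. Requiring 50% of the promoter itself gave 12 at 6 hpa, 2 in 4-cell and 8-cell embryos, 0 in morulae, 2 in ICM, 4 in TE and 1 in PN5. A −log10 q of at least 2 gave 2 in 4-cell embryos, 5 in 8-cell embryos and 1 in PN5, and lists of equal length gave 2 in 4-cell embryos, 5 in 8-cell embryos, 1 in morulae and 1 in ICM.

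Lists of equal length covered 31.2% of the α subcluster in CC, 21.3% at 14 hpa and 9.72% in ICM, 27.6% of the β subcluster in CC, 19.4% at 14 hpa, 11.9% in 4-cell embryos, 10.1% in 8-cell embryos and 12.4% in morulae, and 34.4% of the γ subcluster at 14 hpa and 6.91% in 8-cell embryos. A −log10 q of at least 2 gave 41.7% of β in CC, 11.9% in 4-cell embryos and 9.36% in 8-cell embryos, and 11.5% of γ at the 4-cell and 5.21% in 8-cell embryos. The ratio of coding coverage to coverage between exons in morulae, 0.907, was 1.03 with lists of equal length, a setting chosen after seeing the data.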

Other observations

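Pcdhgb8, annotated as a polymorphic pseudogene and so not a member, has its large exon at chr18:37761879-37764299 between those of Pcdhga11 and Pcdhga12. Peaks covered 100% of it in CC, 84.9% at 6 hpa, 77.5% in 2-cell embryos, 35.1% in 8-cell embryos, 74.5% in morulae, 84.1% in ICM and 90.7% in TE, and none in PN5. The nearest B-type members, Pcdhgb6 and Pcdhgb7, had 48.4 and 28% in 2-cell embryos and no peak in 8-cell embryos and morulae. The Pcdhgb8 exon lies within the run of γ exons that were unmarked in 8-cell embryos and morulae and marked in ICM or TE. With 74.5% covered in morulae, Pcdhgb8 did not share that course.

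The gaps between the subclusters held peaks without holding member exons. The 137313 bp between the β and γ subclusters, where Slc25a2 and Taf7 lie, were covered over 63.1% in CC, more than any of the 3 subclusters, and over 25.8% in ICM and 6.67% in PN5. The 77276 bp between the α and β subclusters were covered over 33.4% in CC and 14.6% in PN5, where this gap had a larger covered share than any subcluster.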
